A study of Homo sapiens with 16 samples.

Results

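Transglutaminase 2 (TGM2) and 7 enzymes that modify or crosslink collagen (LOX, LOXL2, PLOD1, PLOD2, PLOD3, P4HA1 and P4HA2) were followed by ribosome profiling and total RNA sequencing in the human cell line MDA-MB-231, derived from a triple-negative breast cancer, which the submitters' source field calls a xenograft line. The members were chosen by gene symbol, and 8 of 8 were found in each of the 16 libraries, among 26485 listed genes. TGM2 was put at the head of the set for its footprint values, because its response to the construct differed with the guide, so those values are described without a test. Ribosome-protected fragments, called footprints here, are the pieces of transcript left under a ribosome after nuclease digestion.

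The study altered isoleucine tRNAs by CRISPR interference (CRISPRi, which silences a locus where the guide RNA directs the repressor) and by a tRNA construct. In the double modulation, cells had a guide against tRNAIleGAU (the GAU guide) and a construct for tRNAIleUAU (the UAU construct). In the knockdown they had the GAU guide with a control construct, in the construct condition an eGFP guide with the UAU construct, and in the control an eGFP guide with the control construct. All 4 conditions thus carried a CRISPRi guide and a construct, grew without a drug treatment and were measured with 2 libraries per assay, so there were 8 groups. The labels do not say whether a condition was 1 clone or a pool, nor whether the 2 libraries came from separate cultures, and p-values therefore measure only the spread between these libraries, which may be technical.

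TGM2 is a calcium-dependent transglutaminase that joins glutamine and lysine side chains, and outside the cell it binds and crosslinks fibronectin. Collagen is built in steps: in the endoplasmic reticulum prolyl 4-hydroxylases (the P4HA subunits) stabilise the triple helix and lysyl hydroxylases (the PLOD enzymes) modify lysines. After secretion, lysyl oxidases (LOX and LOXL2) oxidise lysines so that the chains can crosslink. Stiff, crosslinked matrix is a known feature of invasive breast tumours. LOX, PLOD2 and P4HA1 are among the known targets of the hypoxia-inducible factor HIF-1, named as examples and not as a complete list.

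Gene counts came to 358340 to 938909 per footprint library and to 2512247 to 5446599 per total RNA library, and the 4 footprint libraries with the GAU guide were deeper (639320 to 938909) than the 4 with the eGFP guide (358340 to 607919). The cells had the markers of a mesenchymal-like line: the 6 genes listed as high in it, VIM among them, summed to 17040 to 19665 footprint CPM (a gene's count scaled to the library's sum over genes) with the GAU guide and to 18336 to 19661 with the eGFP guide. Of the markers of other cells, DCN and THY1 (fibroblasts), CDH5 (endothelium) and CD3E (leukocytes) had no count in any library. Others of these lists had low values: COL1A1 was at 6.58 to 15.6 and PDGFRB at 3.30 to 13.95 footprint CPM, CD14 at 1.71 to 16.7 footprint CPM, and PECAM1 at 3.78 to 10.2 and KDR at 3.58 to 6.72 total RNA CPM. In footprints the fibroblast list summed to 18.1 to 26.6 CPM with the GAU guide and 13.2 to 27.9 CPM with the eGFP guide. The 2 total RNA libraries of the double modulation stood apart from each other: over genes with enough counts, the chi-square of the pair per degree of freedom was 15.0, against 1.37 to 2.41 in the other 3 total RNA groups and 1.15 to 1.67 in the footprint groups. Total RNA and translational efficiency results of members that these libraries move are given with and without each of them.

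For TGM2, the gene on chromosome 20 (38127385 to 38168475, GRCh38.p14), footprints were at 578 and 616 CPM in the double modulation and 796 and 729 CPM in the knockdown. They were at 592 and 595 CPM in the construct condition and 452 and 469 CPM in the control. The knockdown pair was the highest and the control pair the lowest, no pair overlapped either of these, and the double modulation and the construct condition lay between them at the same level. In bulk libraries like these, a change in the share of cells and a change in RNA per cell cannot be told apart.

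The UAU construct thus went with opposite differences in TGM2 footprints under the 2 guides. With the GAU guide, the double modulation averaged 597 ± 26.8 CPM and the knockdown 762 ± 47.8 CPM (SD, n = 2), a log2 fold change of -0.36 ± 0.11 (SE). With the eGFP guide, the construct condition averaged 593 ± 2.29 CPM and the control 460.5 ± 11.5 CPM, a log2 fold change of 0.36 ± 0.13. The difference of these 2 effects, -0.72 ± 0.17, is the value that chose TGM2 and has no test; over all genes, 5 of 8143 (0.0614%) passed in that contrast. Read by guide, the difference between GAU and eGFP guides was 0.72 ± 0.12 among cells with the control construct and -0.01 ± 0.12 among cells with the UAU construct.

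**Figure D1:**
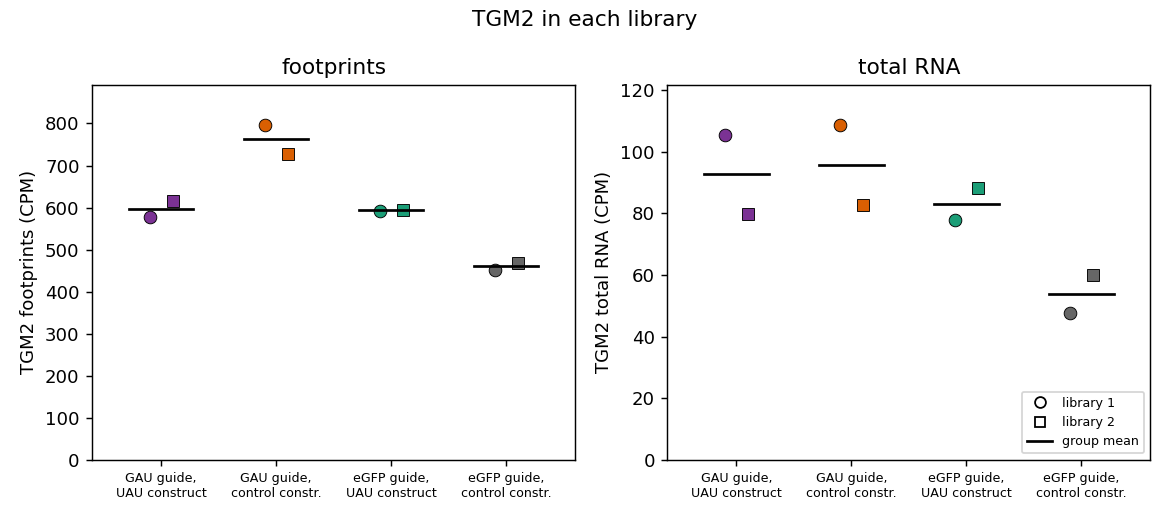
TGM2 in each library, as CPM of footprints (left) and of total RNA (right) for the double modulation, the knockdown, the construct condition and the control; points are libraries and short lines group means. The knockdown has the highest footprint pair (796 and 729 CPM) and the control the lowest (452 and 469 CPM), and in total RNA the control pair (47.8 and 59.8 CPM) lies below the other 6 libraries.

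Total RNA of TGM2, which played no part in its choice, was at 106 and 79.7 CPM in the double modulation and 109 and 82.6 CPM in the knockdown. It was at 77.7 and 88.2 CPM in the construct condition and 47.8 and 59.8 CPM in the control. The control libraries were the lowest 2 of the 8, and the other 3 conditions overlapped one another.

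None of these TGM2 differences in total RNA passed edgeR's quasi-likelihood test with Benjamini-Hochberg adjustment over 11720 genes. The double modulation exceeded the control by a log2 fold change of 0.77 ± 0.18 (1.71-fold, adjusted p = 0.243), and the GAU guide exceeded the eGFP guide over both constructs by 0.48 ± 0.13 (1.40-fold, adjusted p = 0.138). The construct effect was -0.05 ± 0.17 with the GAU guide (adjusted p = 1.00) and 0.64 ± 0.19 with the eGFP guide (adjusted p = 0.999). Their difference was -0.69 ± 0.25 in total RNA (adjusted p = 0.998), where 0 of 11720 genes (0.0%) passed by edgeR, 312 had an unadjusted p under 0.05 and DESeq2 called 0.

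The call in total RNA changed with the setting. With all libraries kept, TGM2 passed between double modulation and control with DESeq2 (0.77, adjusted p = 0.0437), and without the filter on low counts it passed there (0.77, adjusted p = 0.000621 by edgeR) and between guides (0.48, adjusted p = 0.00160). Without the first double-modulation library, TGM2 passed between guides (0.38, adjusted p = 0.0361 by edgeR) and did not pass between double modulation and control (0.59, adjusted p = 0.0597). Without the second it passed in both, at 0.55 (adjusted p = 0.000655) and 0.92 (adjusted p = 0.000352). The construct effect with the GAU guide was -0.23 without the first (adjusted p = 0.549) and 0.11 without the second (adjusted p = 0.723), and the difference of the construct effects was -0.86 (adjusted p = 0.189) and -0.52 (adjusted p = 0.173), by edgeR. In these fits the remaining library is assumed to vary like the other groups.

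Translational efficiency, the footprint difference minus the total RNA difference in a fit of all 16 libraries, is described for TGM2 without a test. It differed between guides by -0.14 ± 0.15 and between double modulation and control by -0.44 ± 0.22. The guide-dependent part of the construct effect was -0.72 ± 0.17 in footprints (no test) and -0.69 ± 0.25 in total RNA (which did not pass). In translational efficiency it came to -0.05 ± 0.31. Without the first double-modulation RNA library the 3 translational efficiency values were -0.03, -0.24 and 0.13, and without the second -0.19, -0.56 and -0.20. Footprint CPM was 6.45 to 8.56 times the total RNA CPM over the 4 conditions, a ratio that also depends on transcript structure and is not compared between genes.

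Among the lysyl hydroxylases, PLOD2 footprints were higher and PLOD3 footprints lower with the GAU guide, and PLOD1 did not pass. The PLOD2 call was lost with DESeq2. PLOD3 lies on chromosome 7, where 84 of 372 tested genes (22.6%) passed as lower. Over both constructs, 1 of the 7 members other than TGM2 rose with the GAU guide, where 0.688% of all genes did, and 1 fell, where 1.99% did; in either direction 218 of 8143 genes (2.68%) passed. The plot of guide effects shows all 8 enzymes side by side.

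**Figure D2:**
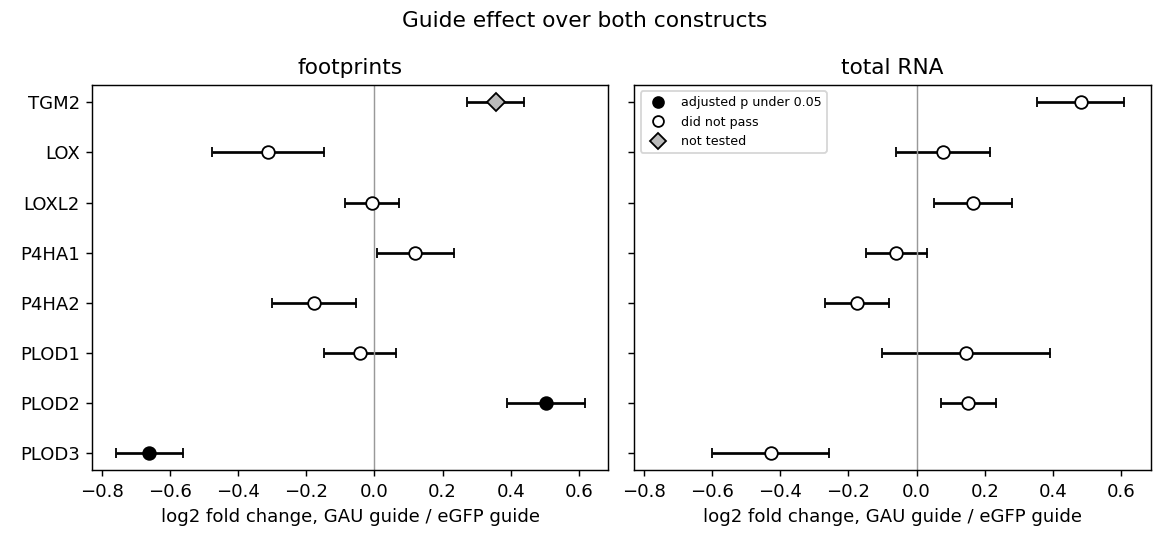
Log2 fold change of the GAU guide over the eGFP guide, both constructs together, in footprints (left) and total RNA (right); points are fitted values and bars their standard errors. In footprints PLOD2 (0.50) and PLOD3 (-0.66) have filled points, which passed the test; TGM2 (grey) was not tested there, and no member passed in total RNA.

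PLOD2, on chromosome 3 (146069440 to 146161184), hydroxylates lysines in the telopeptides of fibrillar collagen, which sets the kind of crosslink formed. Its footprints were at 200.2 and 185 CPM in the double modulation and 291 and 239 CPM in the knockdown. They were at 145 and 177 CPM in the construct condition and 169 and 137 CPM in the control. All 4 libraries with the GAU guide lay above all 4 with the eGFP guide, the knockdown pair highest.

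The mean of PLOD2 footprints was 229 ± 47.4 CPM with the GAU guide and 157 ± 19.0 CPM with the eGFP guide (SD, n = 4), a 1.42-fold rise (log2 0.50 ± 0.11, adjusted p = 0.00198 by edgeR). The call was lost with DESeq2 (0.51, adjusted p = 0.0767) and without the second control library (0.43, adjusted p = 0.0693). The construct effect on PLOD2 footprints was -0.46 ± 0.14 with the GAU guide (adjusted p = 0.120) and 0.09 ± 0.18 with the eGFP guide (adjusted p = 1.00), and neither passed. Double modulation and control differed by 0.32 ± 0.16 (adjusted p = 0.424).

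PLOD2 total RNA was at 262 and 301 CPM in the double modulation and 328 and 332 CPM in the knockdown, against 282 and 266 CPM in the construct condition and 266 and 280.2 CPM in the control. Only the knockdown pair stood clear of the eGFP-guide libraries. The guide difference was 0.15 ± 0.08 in total RNA (adjusted p = 0.579) and 0.34 ± 0.14 in translational efficiency (adjusted p = 0.858), both by edgeR and neither passing. Without the first double-modulation library they were 0.22 (adjusted p = 0.0463) and 0.28 (adjusted p = 1.00), and without the second 0.08 (adjusted p = 0.428) and 0.42 (adjusted p = 0.0530).

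PLOD3, on chromosome 7 (101205984 to 101217581), is the lysyl hydroxylase that also has glycosyltransferase activity, adding glucose to galactosylated hydroxylysine. Its footprints were at 228 and 228 CPM in the double modulation and 207 and 209 CPM in the knockdown. They were at 315 and 357 CPM in the construct condition and 332 and 356 CPM in the control. The 2 guides did not overlap, and within a guide the constructs were closer together than the guides were.

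With the GAU guide PLOD3 footprints averaged 218 ± 11.6 CPM and with the eGFP guide 340.2 ± 20.1 CPM (SD, n = 4), 1.58-fold lower (log2 -0.66 ± 0.10, adjusted p = 2.33e-07 by edgeR). In the double modulation against the control, PLOD3 was the 1 of the 7 tested members that passed (1.93% of all genes passed there, 1.4% as lower), 1.53-fold lower (log2 -0.61 ± 0.14, adjusted p = 0.00268). That call was lost without the second control library (-0.56, adjusted p = 0.158) and when footprint libraries were thinned to equal depth (-0.58, adjusted p = 0.0516), while the guide difference passed in each alternative that tested it.

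Chromosome 7 as a whole moved with PLOD3. Of its 372 genes tested in footprints, 343 were lower with the GAU guide, at a median log2 difference of -0.39, against 0.02 on the other chromosomes. Of the 372, 84 (22.6%) passed as lower, and 56 had a lower value than PLOD3. In total RNA the median of its 554 tested genes was -0.37. The part of this shift in the PLOD3 result was not tested.

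PLOD3 total RNA was at 45.5 and 24.2 CPM in the double modulation and 32.4 and 29.0 CPM in the knockdown, against 50.2 and 47.8 CPM in the construct condition and 37.4 and 41.2 CPM in the control. The first double-modulation library lay among those with the eGFP guide and the other 3 with the GAU guide lay below them. The guide difference of -0.43 ± 0.17 did not pass with all libraries (adjusted p = 0.404 by edgeR). It was -0.68 without that first library and -0.26 without the second. Translational efficiency of PLOD3 differed between guides by -0.25 ± 0.20 (adjusted p = 0.865), by 0.01 without the first double-modulation library and by -0.40 without the second (adjusted p = 0.0758).

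PLOD1, on chromosome 1 (11934717 to 11975537), hydroxylates lysines within the triple helix. Its footprints were at 224 and 202 CPM in the double modulation and 231 and 219.9 CPM in the knockdown, against 232 and 207 CPM in the construct condition and 222 and 241 CPM in the control. The 4 conditions overlapped, and the guide difference was -0.04 ± 0.11 (adjusted p = 0.916 by edgeR). In total RNA the 2 double-modulation libraries held the highest and the lowest PLOD1 value of the 8, 45.7 and 19.9 CPM, and the rest lay between 21.3 and 35.0 CPM.

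The promoters of PLOD2 and PLOD3, the genes that passed in opposite directions, are shown because PLOD2 is a known hypoxia target. They are the 250 bases before the annotated start, read along the gene's strand from RefSeq on GRCh38.p14, at chr3:146161185-146161434 and chr7:101217582-101217831, both on the minus strand. Capitals mark ACGTG, the core of the hypoxia response element, on either strand.
PLOD2: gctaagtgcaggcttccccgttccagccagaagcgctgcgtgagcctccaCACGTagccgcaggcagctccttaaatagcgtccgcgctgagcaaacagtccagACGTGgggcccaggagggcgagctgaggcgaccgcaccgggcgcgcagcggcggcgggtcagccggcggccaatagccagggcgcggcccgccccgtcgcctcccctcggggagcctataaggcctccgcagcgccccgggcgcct
PLOD3: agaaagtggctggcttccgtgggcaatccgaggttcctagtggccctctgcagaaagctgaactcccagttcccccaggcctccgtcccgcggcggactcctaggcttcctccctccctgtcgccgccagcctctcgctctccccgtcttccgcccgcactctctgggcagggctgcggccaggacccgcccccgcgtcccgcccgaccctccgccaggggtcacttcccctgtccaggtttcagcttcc
The PLOD2 window holds 2 matches, which begin 200 and 146 bases before the start, and the PLOD3 window holds 0. Of 35116 promoter windows of that length, 18.5% hold the motif. Promoters of 6 of the 8 members were matched, and none for TGM2 and LOXL2. Of these genes LOX, PLOD2 and P4HA1 have the motif, 3 of 6. That share counts genes, where LOX has 3 windows and each other matched member 1. The 18.5% counts windows, so the 2 shares are not alike. A match describes the letters only, and no match says nothing about the factor.

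LOX, on chromosome 5 (122063195 to 122078259), encodes lysyl oxidase, a secreted copper enzyme that starts collagen and elastin crosslinks. Its footprints were at 45.8 and 56.3 CPM in the double modulation and 76.6 and 67.7 CPM in the knockdown, against 72.6 and 82.3 CPM in the construct condition and 70.7 and 69.3 CPM in the control. The double-modulation pair was below the other 6 libraries, which overlapped.

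For LOX the difference between double modulation and control was -0.50 ± 0.24 (adjusted p = 0.379 by edgeR), and the construct effect was -0.53 ± 0.22 with the GAU guide (adjusted p = 0.453) and 0.16 ± 0.24 with the eGFP guide (adjusted p = 1.00). None of these passed. LOX total RNA was at 34.9 and 31.8 CPM in the double modulation and 37.2 and 33.2 CPM in the knockdown, against 35.9 and 27.2 CPM in the construct condition and 37.4 and 29.6 CPM in the control. These overlapped throughout, and double modulation and control differed by -0.01 ± 0.19 (adjusted p = 0.998), by -0.04 without the first double-modulation library and by 0.02 without the second. Translational efficiency of LOX differed by -0.51 ± 0.29 between them (adjusted p = 0.927).

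LOXL2, a lysyl oxidase-like enzyme of collagen IV assembly on chromosome 8 (23296897 to 23404120), had 774 and 737 footprint CPM in the double modulation and 887 and 807 CPM in the knockdown, against 840.0 and 787 CPM in the construct condition and 804 and 769 CPM in the control. The double-modulation pair reached below the others and overlapped the control, and the guide difference was -0.01 ± 0.08 (adjusted p = 0.984 by edgeR). LOXL2 total RNA was at 184 and 129 CPM in the double modulation and 182 and 147 CPM in the knockdown, against 167 and 151 CPM in the construct condition and 123 and 131 CPM in the control. Its guide difference in total RNA was 0.17 ± 0.12 (adjusted p = 0.689 by edgeR). It was 0.04 without the first double-modulation library and 0.26 without the second.

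**Figure D3:**
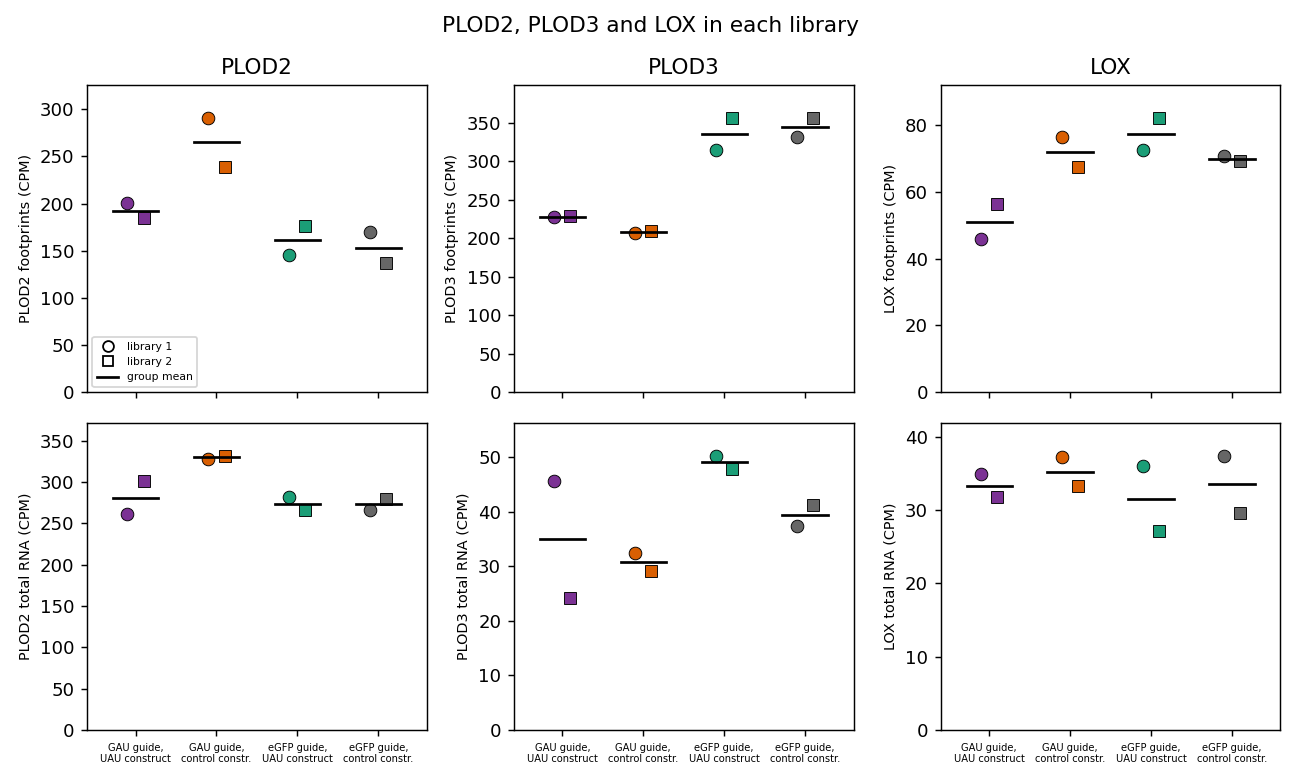
PLOD2, PLOD3 and LOX in each library, as CPM of footprints (top) and total RNA (bottom), for the 4 conditions from double modulation to control; points are libraries and short lines group means. PLOD2 footprints are highest in the knockdown (291 and 239 CPM), PLOD3 footprints fall into 2 levels by guide, and LOX footprints are lowest in the double modulation (45.8 and 56.3 CPM).

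The prolyl 4-hydroxylase subunits passed in no comparison. P4HA1, on chromosome 10 (73007217 to 73096866), is a catalytic subunit of the enzyme, and its footprints were at 241 and 172 CPM in the double modulation and 249.7 and 180.0 CPM in the knockdown, against 179 and 169.7 CPM in the construct condition and 235 and 199.7 CPM in the control. Replicates differed as much as conditions did, and the guide difference was 0.12 ± 0.11 (adjusted p = 0.714 by edgeR). P4HA1 total RNA lay between 154 and 194 CPM in all 8 libraries.

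P4HA2, the alternative catalytic subunit on chromosome 5 (132190147 to 132227853), had footprints of 124 and 183 CPM in the double modulation and 134 and 138 CPM in the knockdown, against 204 and 151 CPM in the construct condition and 164 and 132 CPM in the control. The conditions overlapped, and the guide difference was -0.18 ± 0.12 (adjusted p = 0.575 by edgeR). P4HA2 total RNA was at 53.7 and 55.3 CPM in the construct condition, above the other 6 libraries (40.4 to 49.6 CPM), and its construct effect with the eGFP guide was 0.27 ± 0.13 (adjusted p = 0.999).

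Taking the construct alone, 0 of the 7 members other than TGM2 passed in footprints with the GAU guide, where 0.442% of all genes did. Of the 7, 2 (LOX and PLOD2) had an unadjusted p under 0.05, against 8.31% of all genes, and DESeq2 called 0. With the eGFP guide 0 of 7 passed, where 0.0246% of all genes did. There 0 had an unadjusted p under 0.05, against 5.02% of all genes, and DESeq2 called 0. The plot of the 2 construct effects sets each member's values against each other. TGM2, PLOD2, LOX and LOXL2 lay to the lower right, with negative values under the GAU guide and positive values under the eGFP guide. Outside TGM2 the eGFP-guide values were smaller than their standard errors: 0.16 ± 0.24 for LOX, 0.09 ± 0.18 for PLOD2 and 0.04 ± 0.12 for LOXL2. The differences between the 2 construct effects were -0.72 ± 0.17 for TGM2, -0.69 ± 0.33 for LOX, -0.55 ± 0.23 for PLOD2 and -0.21 ± 0.16 for LOXL2, all from the contrast that chose TGM2 and without a test. In the other 4 members they ran from -0.08 (P4HA2) to 0.29 (P4HA1).

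**Figure D4:**
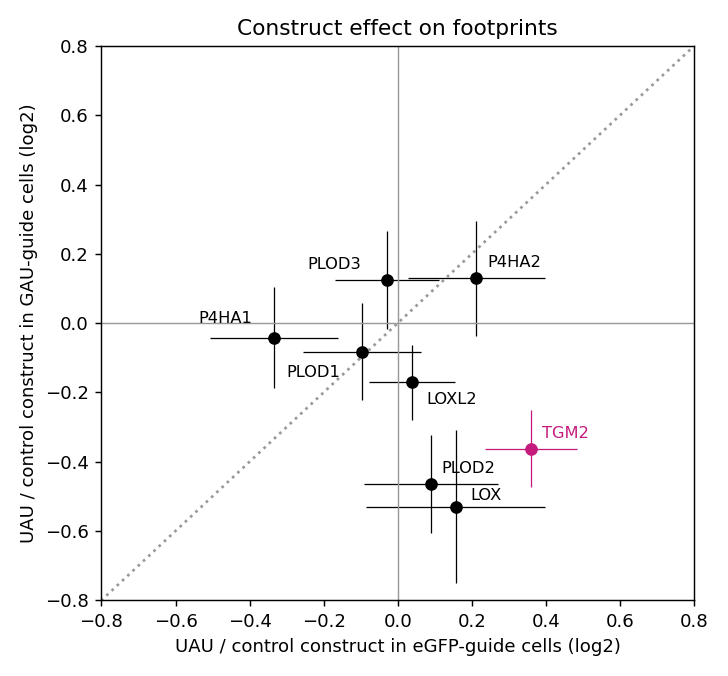
Log2 fold change of footprints with the UAU construct over the control construct, in cells with the GAU guide (y axis) and with the eGFP guide (x axis), for the 8 enzymes; bars are standard errors and the dotted line marks equal effects. TGM2 lies at -0.36 on the y axis and 0.36 on the x axis, and LOX and PLOD2 lie near it on the y axis at -0.53 and -0.46.

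In total RNA 0 of 8 members passed in any of the 5 comparisons by edgeR. The share of all genes that passed was 1.08% between guides (0.896% as lower), 0.0683% between double modulation and control (0.0512% as lower), and 0.0% for the construct with either guide and for the difference of its effects. An unadjusted p under 0.05 was held by 2 members between guides (TGM2 and PLOD3), against 10.5% of all genes. Between double modulation and control 1 member (TGM2) held it, against 7.62% of all genes. For the construct it was 1 with the eGFP guide (TGM2, against 1.99%) and 0 with the GAU guide (against 2.81%). For the difference of its effects it was 2 (TGM2 and P4HA2), against 2.66%. DESeq2 called 1 member, TGM2 between double modulation and control (0.77, adjusted p = 0.0437), and 0 in the other 4. In translational efficiency 0 of 7 members passed in 4 comparisons, where 0.0% of 8012 genes did. PLOD2 between guides was the 1 member with an unadjusted p under 0.05, against 4.64% of all genes there, and DESeq2 called 0. In simulated double modulation against control, the edgeR test of translational efficiency found 0 of 99 changes of 1.5-fold and 24 of 98 of 2-fold. Changes of such sizes could thus go unseen. The simulation did not hold the wider spread of the double-modulation RNA pair.

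The double-modulation RNA libraries bear on these counts. Without the first, 545 of 11665 genes (4.67%) passed between guides in total RNA, and without the second 1820 of 11758 (15.5%) did, against 126 with both. Members that passed between guides were then TGM2, PLOD2 (0.22, adjusted p = 0.0463) and PLOD3 without the first, and TGM2 and LOXL2 without the second. The whole assay moved in the other comparisons too: without the second library 1854 of 11758 genes (15.8%) passed in total RNA between double modulation and control, against 8 with both, and 1095 (9.31%) passed for the construct with the GAU guide, against 0. Member values also depended on which library was kept. Between double modulation and control in total RNA, TGM2 was at 0.92 without the second and 0.59 without the first. There LOXL2 was at 0.48 and 0.04, and PLOD1 at 0.81 and -0.32, in the same order. For the construct with the GAU guide, PLOD1 was at 0.64 and -0.49, PLOD2 at -0.39 and -0.11, and PLOD3 at 0.53 and -0.31. In translational efficiency between double modulation and control, these fits gave LOXL2 -0.56 and -0.13, PLOD1 -0.94 and 0.17, and PLOD3 -0.77 and 0.05. The signs of PLOD1 and PLOD3 thus rested on which library was kept.

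Most other crosslinking enzymes had too few counts to be tested. Of 10 listed transglutaminases and lysyl oxidase-like genes, LOXL4 was the 1 tested in footprints, and LOXL4, LOXL3 and F13A1 were the 3 tested in total RNA. LOXL4, a further lysyl oxidase-like enzyme, averaged 19.5 ± 3.43 footprint CPM in the double modulation, 26.1 ± 11.3 in the knockdown, 26.2 ± 10.3 in the construct condition and 10.7 ± 3.52 in the control (SD, n = 2). It passed in no comparison.

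Among 21 listed genes of collagen hydroxylation, folding and processing, 13 were tested in footprints; between guides 1 was higher and 1 lower, where 0.688% and 1.99% of all genes were, with a median log2 difference of -0.20 against 0.01 over all genes tested. COLGALT2, which adds galactose to hydroxylysine, fell to 60.7 and 51.6 footprint CPM in the double modulation and 76.6 and 81.0 CPM in the knockdown, against 100.5 and 141 CPM in the construct condition and 114 and 132 CPM in the control. The 2 guides did not overlap (guide difference -0.89 ± 0.15, adjusted p = 2.10e-06 by edgeR), and COLGALT2 also passed between double modulation and control (-1.13 ± 0.21, adjusted p = 0.000103), where DESeq2 gave it no adjusted p. It was the 1 of the 13 tested that passed there by edgeR, where 1.93% of all genes passed, 1.4% as lower. In total RNA its guide difference was -0.66 ± 0.12 (adjusted p = 0.0364), a call lost without any 1 of the 6 libraries outside the double modulation (adjusted p = 0.0606 to 0.231).

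P3H2, a prolyl 3-hydroxylase, had 55.4 and 57.9 footprint CPM in the double modulation and 67.1 and 68.9 CPM in the knockdown, against 22.3 and 58.3 CPM in the construct condition and 31.3 and 33.0 CPM in the control. One construct library overlapped those with the GAU guide. Its guide difference of 0.70 ± 0.20 passed (adjusted p = 0.0219 by edgeR) and was lost with DESeq2 (adjusted p = 0.357), with thinning (adjusted p = 0.123), and without either control library or the first construct library (adjusted p = 0.0945 to 0.251). In total RNA 2 of the 15 tested genes of the list passed between guides (0.896% of all genes passed as lower), both lower: COLGALT2 and FKBP9, a peptidyl-prolyl isomerase gene on chromosome 7 (-0.74 ± 0.09, adjusted p = 0.0121, lost without any 1 library outside the double modulation).

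Substrates and partners of these enzymes, 25 genes of which 18 were tested in footprints, had 0 higher and 2 lower between guides, where 0.688% and 1.99% of all genes were (median 0.01, as over all genes). Between double modulation and control 1 of the 18 was lower, where 1.4% of all genes were. COL13A1, a transmembrane collagen, had 249 and 303 footprint CPM in the double modulation and 307 and 283 CPM in the knockdown, against 368 and 370.3 CPM in the construct condition and 370.1 and 469 CPM in the control. The guides did not overlap, and the difference was -0.48 ± 0.10 (adjusted p = 0.000232 by edgeR). COL18A1, a basement membrane collagen, was lower by a log2 difference of -0.37 ± 0.10 (adjusted p = 0.0171), a call lost with DESeq2 (adjusted p = 0.199) and without any 1 of 5 of the 8 libraries (adjusted p = 0.0585 to 0.207). Between double modulation and control COL13A1 alone passed (-0.63 ± 0.13, adjusted p = 0.00122), and not without the second control library (adjusted p = 0.332) or the first double-modulation library (adjusted p = 0.0993).

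In footprints, 1 of 18 tested substrates and partners passed for the construct with the GAU guide, as lower. Of all genes 0.442% passed there, 0.307% as lower. The gene was FN1, the fibronectin that TGM2 binds. Its footprints were at 1835 and 1907 CPM in the double modulation and 3116 and 2337 CPM in the knockdown, against 1990 and 2074 CPM in the construct condition and 2227 and 2291 CPM in the control. The first knockdown library was well above the rest, and the double-modulation pair was below all others. The construct effect was -0.55 ± 0.10 (adjusted p = 0.000295 by edgeR), and without the first knockdown library it was -0.32 (adjusted p = 0.521). FN1 total RNA lay between 1425 and 2065 CPM and the knockdown libraries (1855 and 1425 CPM) did not exceed the others.

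Of 15 hypoxia targets, 12 were tested in footprints, and 0 passed between guides by edgeR or DESeq2. An unadjusted p under 0.05 was held by 3 of the 12, against 13.4% of all genes. Their median was 0.15, against 0.01 over all genes tested. In total RNA 1 of 13 passed between guides by edgeR, as higher, where 0.179% of all genes did, and DESeq2 called 0. There 7 of the 13 had an unadjusted p under 0.05, against 10.5% of all genes. The median was 0.19, against 0.02 over all genes tested, and the list as a whole was not tested. The targets did not all go the same way. Group means of EGLN3 total RNA were 5.55 and 5.13 CPM in the double modulation and the knockdown. They were 8.32 and 8.14 CPM in the construct condition and the control. CA12 was also lower with the GAU guide, at 35.7 and 37.7 CPM against 48.3 and 44.5 CPM in the same order, while PFKFB4 was higher. PFKFB4, a regulator of glycolysis, had 17.1 and 14.4 CPM in the double modulation and 19.7 and 15.2 CPM in the knockdown, against 8.12 and 7.76 CPM in the construct condition and 9.55 and 8.64 CPM in the control. The guides did not overlap, but the difference of 0.95 ± 0.18 (adjusted p = 0.0444 by edgeR) did not pass without any 1 library outside the double modulation (adjusted p = 0.138 to 0.247).

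The genes whose footprints were most like those of TGM2 were named by Pearson correlation of log2 CPM across the 8 footprint libraries, among 5681 genes with a mean log2 CPM of at least 5. They were ENPP1 (r = 0.955), KLHL11 (0.953), FAT1 (0.951), APBB2 (0.938) and GPRC5A (0.929), against a median of 0.01 over all. The points share libraries, guide and depth, so these values are a description. ENPP1, an ectoenzyme that makes pyrophosphate, had 144 and 150.2 footprint CPM in the double modulation, 233 and 176 in the knockdown, 131 and 137 in the construct condition and 114 and 106 in the control. GPRC5A, an orphan receptor, had 942 and 929 CPM in the double modulation, 1278 and 1089 in the knockdown, 968 and 984 in the construct condition and 872 and 822 in the control. Like TGM2, both were highest in the knockdown and lowest in the control.

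Across the 8 total RNA libraries, the correlation with TGM2 was 0.549 for ENPP1, 0.728 for GPRC5A, 0.355 for FAT1, 0.161 for APBB2 and -0.28 for KLHL11. By rank correlation the 5 were tied in place 4 (rho = 0.905). Among the collagen enzymes PLOD2 was the nearest to TGM2 in footprints (r = 0.825, place 50 of 5681, and place 110 by rank correlation) and PLOD3 the farthest (r = -0.76). In total RNA the correlation of PLOD2 with TGM2 was 0.316, and LOXL2 was the nearest of the collagen enzymes (r = 0.844).

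**Figure D5:**
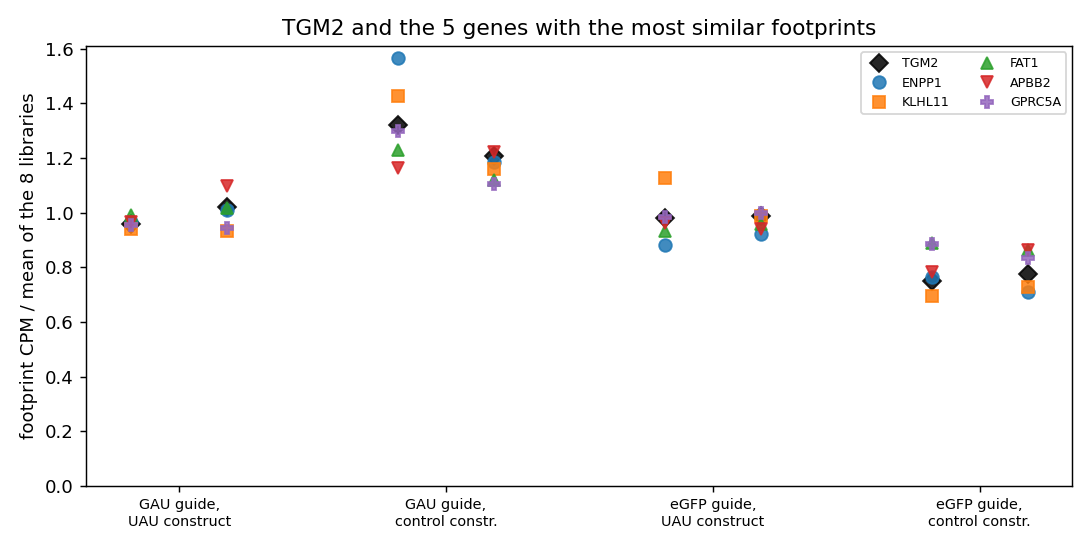
Footprint CPM of TGM2 and of the 5 genes most like it, each divided by its mean over the 8 libraries, for the 4 conditions from double modulation to control; points are libraries. By group mean each gene is highest in the knockdown and lowest in the control, with the double modulation and the construct condition between.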

How the data were processed

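Footprints and total RNA were sequenced in 16 libraries, grouped by assay, guide and construct as labelled. Each deposited file lists the authors' unnormalised counts of reads by gene symbol. Tools named in the submitters' processing notes are cutadapt 1.17, STAR 2.5.2a and HTSeq (version not given in the sources used here), with build hg38. Genes missing from a footprint file were given a count of 0, and HTSeq's summary lines were left out. Multiply placed alignments, which were not counted on genes, were 97.0 to 98.8% in footprints and 97.2 to 98.1% in total RNA.

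CPM is a gene's count scaled to the library's sum over genes. Log2 fold changes come from edgeR 4.0.16 (R 4.3.3) with filterByExpr (minimum count 10, total 15), TMM scaling, group means over the 8 libraries of an assay and the quasi-likelihood test; p-values were adjusted over all genes tested by Benjamini-Hochberg, with a threshold of 0.05. Translational efficiency used 1 fit of all 16 libraries. The biological coefficient of variation was 6.71% in footprints and 14.3% in total RNA. Tested on simulated double modulation against control, the footprint test found 18 of 99 changes of 1.5-fold and 51 of 98 of 2-fold (8130 genes). The total RNA test found 26 of 100 and 60 of 100 (11679 genes). The translational efficiency test found 0 of 99 and 24 of 98 (7996 genes). All simulated libraries of an assay shared the same spread, so the wider spread of the double-modulation RNA pair was not simulated.

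The members and lists were chosen with earlier results of these data known. Named were all members, listed genes that passed (at most 4 per list and comparison, lowest p first) and the 5 genes most correlated with TGM2; LOXL4, LOXL3 and F13A1 were named after their values were seen. Alternatives were DESeq2 1.42.0, RLE scaling, no filter, a replicate block, thinned footprints, no chromosome 7, and each library left out.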

Additional observations from a re-analysis of the deposited data

Results flagged for a closer look

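TGM2 footprints ran in opposite directions under the 2 guides: both double-modulation libraries were below both knockdown libraries and both construct libraries were above both control libraries, and the 2 construct effects differ by -0.72 on the log2 scale. For LOX the same order of libraries gives a difference of -0.69 between the effects with the GAU and the eGFP guide, though neither effect passed (-0.53, adjusted p = 0.453, and 0.16 ± 0.24, adjusted p = 1.00, by edgeR). For LOXL2 the double-modulation libraries were below the construct libraries and the knockdown libraries above the control libraries, a difference of -0.21 between guide effects of -0.11 ± 0.11 and 0.10 ± 0.11, each about its standard error in size. These differences between groups were not tested.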

How the results depend on the processing

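Counts of members that passed moved as follows. Between guides in footprints the count was 2, and 1 with DESeq2 and 1 without chromosome 7, which leaves out PLOD3 itself. Between double modulation and control in footprints it was 1, and 0 with thinned footprints and 0 without chromosome 7. In total RNA it was 0, and between guides 1 (TGM2) without the filter on low counts, and between double modulation and control 1 with DESeq2 and 1 without the filter (TGM2 in both). Leaving out 1 library at a time gave 1 to 2 members between guides and 0 to 1 between double modulation and control in footprints, and 0 to 3 in total RNA between guides, for the construct with the GAU guide and between double modulation and control, and 0 to 3 in translational efficiency between double modulation and control. Among these fits, members passed in total RNA only where a double-modulation RNA library was left out. In translational efficiency they passed only without the second of these libraries. In each such fit more genes passed over the whole assay too, so these counts cannot be read as a result about the members alone. With 1 library left out, TGM2 footprint values ran from -0.79 to -0.65 for the difference of the construct effects. They ran from -0.43 to -0.29 for the construct with the GAU guide and from 0.65 to 0.79 for the guides with the control construct. The log2 difference between library 1 and library 2 of a condition was correlated over genes with that of each other condition. In footprints these correlations ran from -0.04 to 0.06. In total RNA they ran from -0.42 (double modulation with construct condition) to 0.36 (double modulation with knockdown). Their sign changed between pairs of conditions, so the numbers gave no consistent pairing. With replicate number as a block, the difference of the construct effects on TGM2 footprints was -0.72. The replicate block fit gave 0.49 for PLOD2 and -0.65 for PLOD3 footprints between guides. PFKFB4 lost its call in total RNA with the block (0.94, adjusted p = 0.0708). Without chromosome 7 it was at 0.94 (adjusted p = 0.123) and COLGALT2 in total RNA at -0.67 (adjusted p = 0.0937), near their values with it, 0.95 and -0.66. The causes were not tested. In simulated footprints of double modulation against control, 18 of 99 changes of 1.5-fold were found, and in simulated translational efficiency 0 of 99. Other comparisons were not simulated.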
